A study of Mus musculus with 12 samples.

Results

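The genes described here are 35 genes of glucose transport, glycolysis, the handling of pyruvate and lactate and the response to low oxygen, out of 35580 genes with a value in the deposited tables. The rule for choosing them used gene names and no measured value, and they fall into 6 roles. These are 2 glucose transporters, 15 glycolytic enzymes, 3 bifunctional PFKFB enzymes, 4 genes of lactate, 5 genes of the pyruvate dehydrogenase gate and 6 genes of the hypoxia response. The libraries were polyA RNA from mouse R1 embryonic stem cells (ESCs), either wild type (WT) or lacking *Cidea* (CIDEA KO), a gene whose protein promotes the fusion of lipid droplets. Both genotypes were sampled as ESCs in serum with LIF (0 h) and as spheroids at 24 h and 48 h in growth factor-reduced Matrigel with serum and without LIF. Each of the 6 groups held 2 libraries. The CIDEA KO cells were 1 CRISPR clone of the parental R1 line, so what the deletion did and what belongs to the clone cannot be told apart. The oxygen level of the cultures was not given in the sources used here.

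Glycolysis turns glucose into pyruvate in the cytosol. Pyruvate is then either reduced to lactate by lactate dehydrogenase and exported by monocarboxylate transporters, or admitted to mitochondria by the pyruvate dehydrogenase complex, which the PDK kinases switch off. When oxygen is scarce, the EGLN prolyl hydroxylases no longer mark the transcription factor subunit HIF1A for destruction, and HIF1 then binds the core letters ACGTG or GCGTG near its targets, among them many genes of glycolysis and *Egln3* itself. Pluripotent cells are known for a high glycolytic rate, which is remodelled as they leave the naive state. These data hold RNA levels only, and neither HIF1A protein nor glucose use was measured.

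The libraries held 28998188 to 38509860 estimated counts. *Cidea* had 20 to 117 counts in the WT libraries and 0 in all 6 CIDEA KO libraries. One library stood apart: at equal depth, CIDEA KO 24 h replicate 1 had counts for 15477 genes against 17640 to 19669 in the other 11. Some results at 24 h in CIDEA KO, but not all, are therefore also given without it. Leaving it out moved the log2 fold change to 24 h in CIDEA KO from -1.55 to -1.17 for *Egln1* and from -0.94 to -0.81 for *Hk2*. It moved that of *Slc2a3* from -0.78 to -0.67 and that of *Aldoc* from -1.56 to -2.33. Levels are in TPM, which scales each transcript by its length and each library to the same total. Of the 10 pluripotency genes checked, 3 rose and 7 fell by 48 h in either genotype, and their summed level was 3374 to 3862 TPM in ESCs, 3047 to 3312 TPM at 24 h and 2316 to 2533 TPM at 48 h. Markers of other cell types were low, but those of trophoblast and mesoderm, which share *Eomes*, moved with time. The 7 trophoblast genes summed to 14.9 to 16.9 TPM in ESCs, 21.5 to 23.2 TPM at 24 h and 27.5 to 37.7 TPM at 48 h, with 2 called higher in WT and 3 in CIDEA KO by 48 h. The 6 mesoderm genes summed to 5.57 to 8.44 TPM, 6.33 to 10.5 TPM and 11.6 to 14.2 TPM at these times, so every 48 h library was above every earlier one. Of the trophoblast genes, *Krt8* (up to 22.1 TPM) and *Eomes* (up to 9.46 TPM) were the most abundant. *Cdx2*, *Elf5* and *Hand1* were never above 2.275 TPM. Endoderm genes (9 listed, *Ttr* at 0 throughout) summed to 7.39 to 11.98 TPM, and in these and the mesoderm list 1 gene each was called higher by 48 h in either genotype. The 6 fibroblast genes summed to 6.88 to 24.8 TPM with no call by 48 h, but 1 of them, *Thy1*, was called lower in CIDEA KO over all times. At 24 h the genotypes overlapped for *Thy1*, at 18.3 and 18.1 TPM in WT and 21.6 and 13.3 TPM in CIDEA KO. Genes of dissociation and stress (10 listed) summed to 460.0 to 638 TPM in ESCs, 199 to 238 TPM at 24 h and 99.3 to 116 TPM at 48 h. Most of each sum was *Asns*, at 324 to 438 TPM in ESCs. By 24 h, 6 of the 10 were called lower in WT and 8 in CIDEA KO, where 15.0% and 18.6% of all genes were called. The share of counts from the mitochondrial genome was 2.80% to 3.85% in ESCs, 2.39% to 2.63% at 24 h and 3.46% to 4.34% at 48 h. The part of these markers in the results below was not tested. Bulk libraries cannot tell fewer cells of a kind from less RNA per cell, and the 2 libraries of a group, described in the study as independent biological samples, came from the same line or clone, so p-values measure the spread between such samples.

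All 35 genes passed the filter on low counts, and together they made up 1.31% to 1.66% of all TPM. Most of that was enzyme RNA. On the TPM scale, which divides by transcript length, *Gapdh* lay between 4804 and 5799 TPM, *Pkm* between 1868 and 2588 TPM and *Aldoa*, *Eno1*, *Ldha* and *Pgam1* between 834 and 1563 TPM. The 15 enzymes summed to 12310.0 to 13160.0 TPM in ESCs, 10710.0 to 12050.0 TPM at 24 h and 13020.0 to 13890.0 TPM at 48 h. All 4 libraries at 24 h were below every other library. The 4 lactate genes summed to 1282 to 1878 TPM, the transporters to 371 to 829 TPM, the 5 pyruvate gate genes to 232 to 387 TPM and the 6 hypoxia genes to 136 to 218 TPM. The PFKFB enzymes were scarce, at 13.3 to 20.2 TPM for all 3. The least abundant genes were *Pdk4* (0.0383 to 2.57 TPM), *Pfkfb4* (1.34 to 3.74 TPM) and *Eno2* (1.98 to 8.99 TPM).

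The first question was how these genes changed as ESCs became spheroids. In WT spheroids at 24 h, 16 of the 35 genes had changed against ESCs, 15 of them downward, where 15.0% of the 17424 genes tested were called. In CIDEA KO, 19 had changed, 17 downward, against 18.6% of all genes. The median of the 35 log2 fold changes was -0.25 in WT and -0.43 in CIDEA KO, beside 0.00 and -0.03 over all genes tested. From 24 h to 48 h the balance turned. In WT 8 genes were called, 6 of them higher (background 8.14%), and in CIDEA KO 14 were called, 13 of them higher (background 9.95%), with medians of 0.14 and 0.30 beside 0.01 and 0.03 over all genes. At 48 h against ESCs, 14 genes were called in WT (6 higher and 8 lower, background 23.6%) and 22 in CIDEA KO (11 higher and 11 lower, background 25.0%). The 24 h libraries enter both steps, so a low 24 h value lowers the first difference and raises the second, and the levels themselves are given below.

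**Figure D1:**
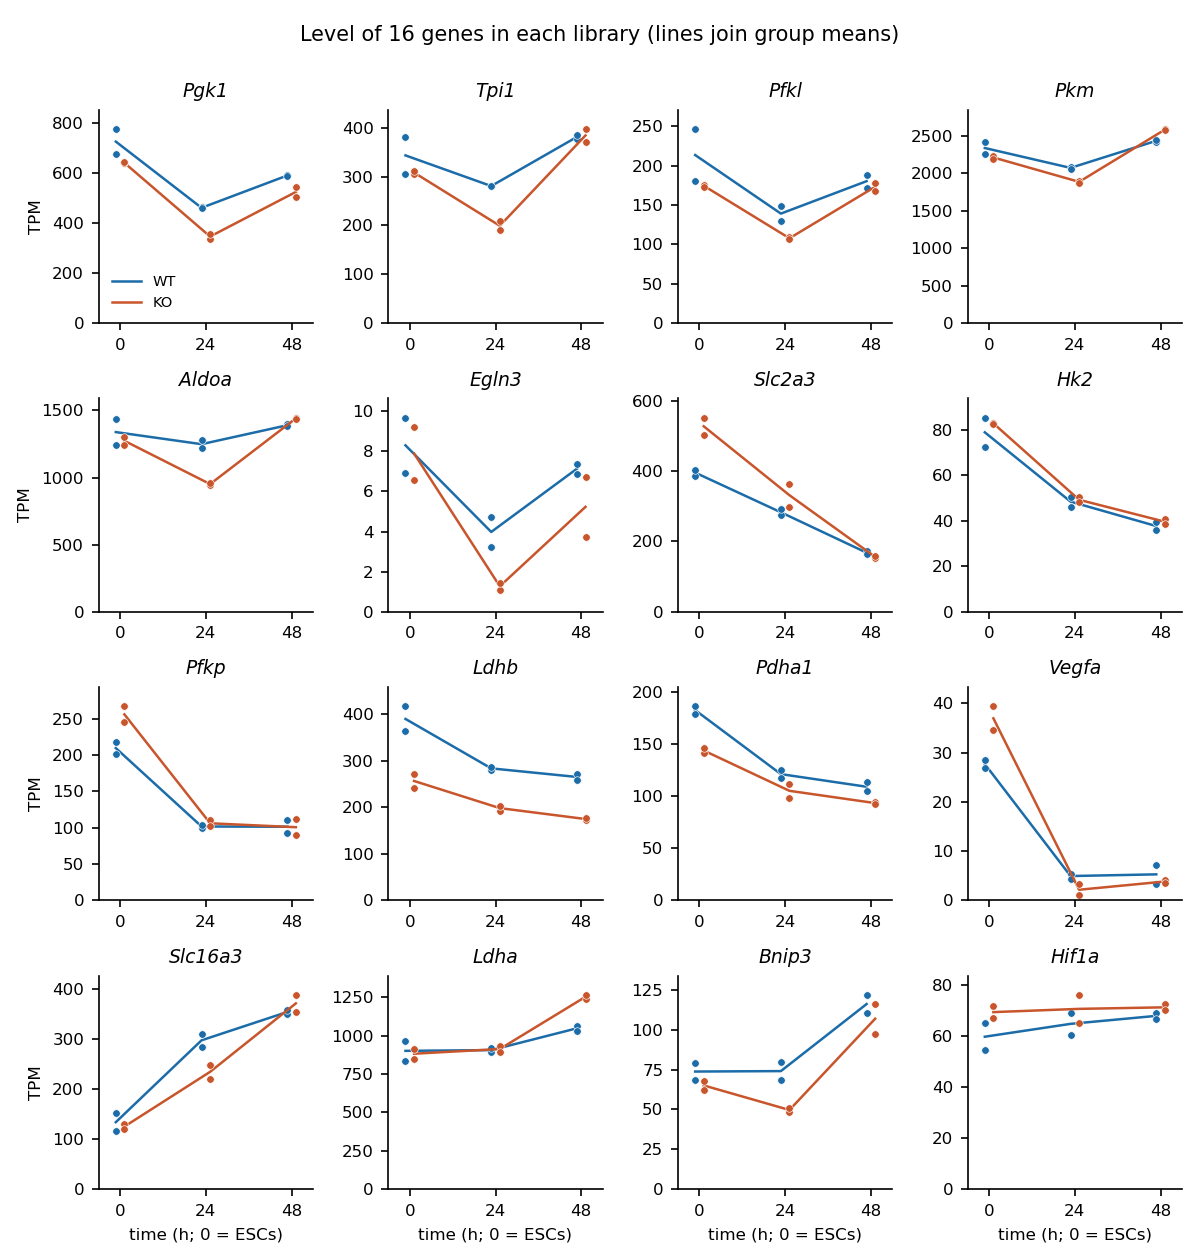
Level of 16 of the genes in TPM (vertical axis, from 0, with a scale of its own in each panel) against time in hours (0 is ESCs), with 1 point a library and lines through the means of 2 libraries, WT in blue and CIDEA KO in orange. *Pgk1* was lowest at 24 h in either genotype, *Slc2a3* and *Hk2* were lower at each later time, *Slc16a3* rose, *Ldhb* was lower in CIDEA KO in every pair of groups, and *Hif1a* stayed between 54.5 and 76.1 TPM.

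Entry of glucose into the cells and its first phosphorylation lost RNA over time. *Slc2a3*, which encodes the high-affinity glucose transporter GLUT3, stood at 387 and 404 TPM in WT ESCs, 275 and 291 TPM at 24 h and 171 and 164 TPM at 48 h. It was 503 and 551 TPM in CIDEA KO ESCs, 299 and 363 TPM at 24 h and 152 and 159.6 TPM at 48 h. The groups did not overlap from one time to the next in either genotype. Its log2 fold change at 48 h against ESCs was -1.33 ± 0.07, adjusted p = 4.40e-11, in WT and -1.72 ± 0.07, adjusted p = 8.22e-13, in CIDEA KO. *Slc2a1* (GLUT1, the widespread transporter) behaved otherwise. It was 221 and 196 TPM in WT ESCs, 218 and 199.5 TPM at 24 h and 231 and 209 TPM at 48 h, with overlapping groups and no call, but fell in CIDEA KO from 274 and 278 TPM to 229.7 and 212 TPM at 48 h (-0.27 ± 0.08, adjusted p = 0.0129), a call lost without CIDEA KO 48 h replicate 2, CIDEA KO ESC replicate 1 or CIDEA KO ESC replicate 2 (adjusted p up to 0.161). *Hk2*, the hexokinase that traps glucose as glucose 6-phosphate, was 85.3 and 72.5 TPM in WT ESCs, 46.2 and 50.7 TPM at 24 h and 39.4 and 35.98 TPM at 48 h, and 83.1 and 82.5 TPM in CIDEA KO ESCs, 50.3 and 48.1 TPM at 24 h and 40.6 and 38.5 TPM at 48 h. It fell by 24 h in either genotype (-0.76 ± 0.09 in WT and -0.94 ± 0.09 in CIDEA KO, adjusted p = 5.10e-06 and 2.33e-07) and was called lower again from 24 h to 48 h in WT (-0.30 ± 0.09, adjusted p = 0.0464), a call lost in 7 of the 12 fits without 1 library, 4 of them fits without a WT 24 h or 48 h library (adjusted p up to 0.255).

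The 3 phosphofructokinase genes, whose product catalyses the committed step of glycolysis, went 3 ways. *Pfkp* (platelet form) was 218 and 200.7 TPM in WT ESCs, 98.9 and 104 TPM at 24 h and 92.2 and 110.4 TPM at 48 h, and 267 and 245 TPM in CIDEA KO ESCs, 110.0 and 102 TPM at 24 h and 112 and 89.9 TPM at 48 h. It fell to 24 h, with values of -1.01 ± 0.10 (adjusted p = 7.03e-07) in WT and -1.25 ± 0.10 in CIDEA KO (adjusted p = 3.57e-08). *Pfkl* (liver form) dipped and came back, from 247 and 181 TPM to 149 and 129.6 TPM and 172 and 189 TPM in WT, and from 176 and 173 TPM to 109 and 107 TPM and 168 and 178 TPM in CIDEA KO. Both steps were called in both genotypes, but the WT return (0.43 ± 0.08, adjusted p = 0.00181) was lost without WT 24 h replicate 1 (adjusted p up to 0.0597), and with length offsets or limma (up to 0.185). *Pfkm* (muscle form) was the least abundant and rose by 48 h, from 18.3 and 15.3 TPM to 28.3 and 26.8 TPM in WT (0.65 ± 0.14, adjusted p = 0.00194) and from 15.2 and 14.5 TPM to 23.4 and 25.1 TPM in CIDEA KO (0.74 ± 0.14, adjusted p = 5.14e-04). Both 48 h calls were lost with length offsets and with limma (adjusted p up to 0.111 in WT and 0.119 in CIDEA KO). The 24 h libraries of *Pfkm* in CIDEA KO disagreed, at 36.7 and 19.3 TPM, and without replicate 1 the 24 h call was lost.

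The bifunctional PFKFB enzymes set the level of fructose 2,6-bisphosphate, the activator of phosphofructokinase. *Pfkfb3*, the glycolytic form, rose in CIDEA KO from 5.53 and 8.28 TPM at 24 h to 10.4 and 9.31 TPM at 48 h (0.78 ± 0.22, adjusted p = 0.0249). In WT it went from 8.99 and 6.01 TPM to 10.8 and 9.30 TPM, without a call. *Pfkfb2* was called lower at 24 h in WT, from 5.85 and 9.66 TPM to 3.48 and 5.40 TPM (-0.83 ± 0.25, adjusted p = 0.0284). In CIDEA KO it went from 7.47 and 7.33 TPM to 4.72 and 6.36 TPM (-0.56 ± 0.25, adjusted p = 0.135). Both calls were lost with length offsets, with limma and with only the compared groups in the fit. *Pfkfb4* was not called in any comparison. The *Pfkfb3* call was lost without CIDEA KO 24 h replicate 1, CIDEA KO 48 h replicate 1 or CIDEA KO 48 h replicate 2 (adjusted p up to 0.217) and the *Pfkfb2* call without WT 24 h replicate 1, WT ESC replicate 1 or WT ESC replicate 2 (adjusted p up to 0.311).

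The clearest fall and return was in *Pgk1*, the X-linked gene of phosphoglycerate kinase, which makes the first ATP of glycolysis. It stood at 776 and 677 TPM in WT ESCs, 464 and 459 TPM at 24 h and 594 and 588 TPM at 48 h. It was 640.1 and 643 TPM in CIDEA KO ESCs, 335 and 358 TPM at 24 h and 547 and 504 TPM at 48 h. All 4 libraries at 24 h were below all libraries of the other times, and at 48 h *Pgk1* was still below ESCs in WT (-0.32 ± 0.07, adjusted p = 0.00173) and CIDEA KO (-0.24 ± 0.07, adjusted p = 0.0133). The log2 fold changes were -0.71 ± 0.07, adjusted p = 4.98e-07, and -0.93 ± 0.07, adjusted p = 1.02e-08, from ESCs to 24 h in WT and CIDEA KO, and 0.39 ± 0.07, adjusted p = 0.00116, and 0.68 ± 0.07, adjusted p = 1.63e-06, from 24 h to 48 h. *Tpi1* (triosephosphate isomerase) went from 381 and 306 TPM to 281 and 281 TPM and 377 and 386 TPM in WT, and from 306 and 311 TPM to 191 and 208 TPM and 397 and 371 TPM in CIDEA KO. All 4 steps were called, and in CIDEA KO the 48 h level was above that of ESCs (0.34 ± 0.09, adjusted p = 0.00553), a call lost without CIDEA KO 48 h replicate 1 or CIDEA KO ESC replicate 1 (adjusted p up to 0.065). *Pkm*, which makes the last ATP, did the same over a smaller range, with 2421 and 2251 TPM in WT ESCs, 2085 and 2056 TPM at 24 h and 2416 and 2447 TPM at 48 h, and 2235 and 2185 TPM in CIDEA KO ESCs, 1902 and 1868 TPM at 24 h and 2588 and 2575 TPM at 48 h. Its 4 steps were called with log2 fold changes of -0.22 ± 0.06, 0.25 ± 0.06, -0.25 ± 0.06 and 0.51 ± 0.06, the first and second in WT. The WT call of *Tpi1* at 24 h was lost without WT 24 h replicate 1, WT 24 h replicate 2 or WT ESC replicate 1 (adjusted p up to 0.291), as was that of *Pkm* (up to 0.148). The WT return of *Pkm* was lost without WT 24 h replicate 1, WT 24 h replicate 2 or WT 48 h replicate 2 (adjusted p up to 0.0664).

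*Aldoa*, the main aldolase, fell and returned with calls only in CIDEA KO, where it was 1303 and 1244 TPM in CIDEA KO ESCs, 941 and 962 TPM at 24 h and 1446 and 1437 TPM at 48 h (-0.42 ± 0.07, adjusted p = 1.03e-04, and 0.65 ± 0.07, adjusted p = 1.20e-06). In WT it was 1435 and 1243 TPM in WT ESCs, 1280.0 and 1218 TPM at 24 h and 1396 and 1384 TPM at 48 h, with ESCs overlapping both later times and no call. Whether the genotypes differed in this is given with the interaction test below. *Aldoc*, a scarce aldolase, fell to 24 h in WT from 20.1 and 19.4 TPM to 7.81 and 5.61 TPM (-1.46 ± 0.30, adjusted p = 0.0023). In CIDEA KO it was called too, but the groups overlapped on the TPM scale, at 23.8 and 15.4 TPM and 16.8 and 4.39 TPM, with the higher 24 h value in the library that stood apart. Both *Aldoc* calls were lost with length offsets and with limma (adjusted p up to 0.0943 in WT and 0.262 in CIDEA KO). *Gapdh*, often used as a constant reference, was not called in WT (4943 and 4895 TPM in WT ESCs, 5156 and 4900.0 TPM at 24 h and 5172 and 5375 TPM at 48 h) and rose modestly in CIDEA KO to 5634 and 5799 TPM at 48 h from 4804 and 5058 TPM at 24 h (0.30 ± 0.05, adjusted p = 2.81e-04). *Eno1* (enolase) rose by 48 h in either genotype, from 1146 and 1206 TPM to 1409 and 1507 TPM in WT (0.33 ± 0.06, adjusted p = 2.09e-04) and from 1040.0 and 975 TPM to 1563 and 1275 TPM in CIDEA KO (0.52 ± 0.06, adjusted p = 8.93e-07). The WT call was lost with length offsets and with limma (adjusted p up to 0.0751).

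The letters that HIF1 reads were looked up near the start sites. RefSeq promoter windows (300 bases across a start, GRCm38) were available for 34 of the 35 genes, all but *Slc2a3*, in 50 windows. The motif ACGTG, on either strand, was in 52.0% of these windows against 19.6% of 32851 windows of all genes. GCGTG was in 58.0% against 32.4%, and at least 1 of both in 82.0% against 43.8%. ACGTG overlaps the E-box CACGTG, which MYC and USF proteins read, and CACGTG was in 16% against 7.2%. The windows were not matched for base composition, and genes with several windows entered more than once. The genes were listed by name as genes of glycolysis and of the response to low oxygen, which include known HIF1 targets. A share above that of all genes therefore says nothing of HIF1 in these cultures. The genes below are shown because they fell and returned or, as *Ldha* and *Bnip3*, rose by 48 h. *Pgk1* and *Pfkl* fell and returned with calls in both genotypes, *Aldoa* and *Egln3* with both steps called only in CIDEA KO. *Tpi1* and *Pkm* also fell and returned with calls in both genotypes but had no motif to show. Each gene is given as 60 bases in its own sense, with the motif, or its reverse complement CACGT or CACGC, in capitals.
*Pgk1* (chrX:106186941-106187000, plus strand): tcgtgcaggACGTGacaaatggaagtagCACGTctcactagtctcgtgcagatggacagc
*Pfkl* (chr10:78009875-78009934, minus strand): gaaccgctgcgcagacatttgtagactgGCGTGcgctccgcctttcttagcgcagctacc
*Aldoa* (chr7:126799349-126799408, minus strand): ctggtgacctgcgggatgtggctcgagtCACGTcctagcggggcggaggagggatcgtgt
*Egln3* (chr12:54204065-54204124, minus strand): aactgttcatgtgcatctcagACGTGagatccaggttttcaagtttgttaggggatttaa
*Ldha* (chr7:46845742-46845801, plus strand): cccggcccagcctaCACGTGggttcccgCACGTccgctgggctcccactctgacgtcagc
*Bnip3* (chr7:138909582-138909641, minus strand): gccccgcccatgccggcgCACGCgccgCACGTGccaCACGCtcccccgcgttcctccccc
The 60 bases shown for *Pgk1* hold 2 copies of ACGTG, and those for *Ldha* and *Bnip3* 1 E-box each. *Tpi1*, *Pkm*, *Gpi1*, *Eno2* and *Vegfa* had neither motif in the window nearest to the start of their main transcript. The RefSeq start of that window lay 138 bases from the start of the main transcript for *Tpi1* and 208 bases for *Pkm*. Counting all windows, 31 of the 34 genes held at least 1 of both motifs. Absence from 1 window of 300 bases cannot show that a gene lacks such a site, and binding was not measured.

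**Figure D2:**
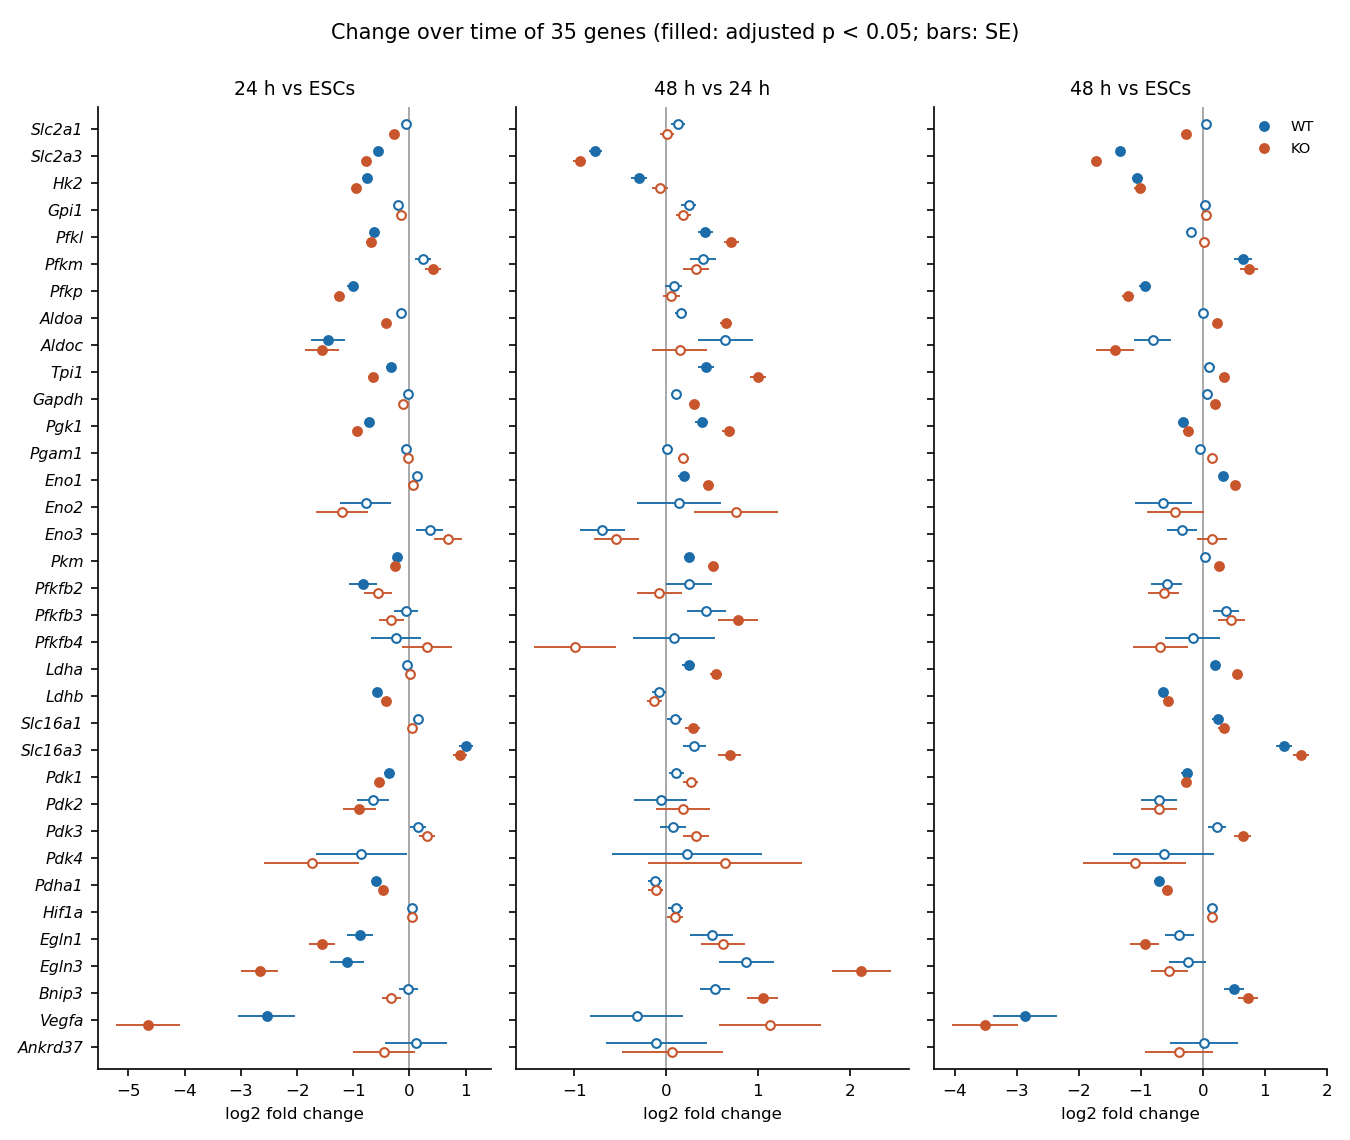
Log2 fold change (horizontal axis, a scale of its own in each panel) of the 35 genes, grouped by role from top to bottom, for 24 h against ESCs, 48 h against 24 h and 48 h against ESCs. WT is blue, CIDEA KO orange, bars are 1 SE from edgeR over 2 libraries a group, and filled points passed an adjusted p of 0.05. Most points lie left of 0 in the first panel and right of 0 in the second, with *Slc2a3* falling in all 3.

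The genes of lactate moved in both directions. *Ldha*, the subunit that favours making lactate, was 965 and 836 TPM in WT ESCs, 893 and 917 TPM at 24 h and 1062 and 1032 TPM at 48 h, and 913 and 849.6 TPM in CIDEA KO ESCs, 933 and 891 TPM at 24 h and 1240.0 and 1264 TPM at 48 h. ESCs and 24 h overlapped in either genotype, and from 24 h to 48 h it rose by 0.54 ± 0.07, adjusted p = 2.65e-05, in CIDEA KO and by 0.25 ± 0.07, adjusted p = 0.0324, in WT. *Ldhb*, the subunit that favours using lactate, fell instead. It was 362 and 416 TPM in WT ESCs, 279.9 and 286 TPM at 24 h and 270.2 and 259 TPM at 48 h, and 241 and 271 TPM in CIDEA KO ESCs, 193 and 204 TPM at 24 h and 172 and 178 TPM at 48 h, with a log2 fold change at 48 h against ESCs of -0.65 ± 0.08, adjusted p = 4.19e-06, in WT and -0.55 ± 0.08, adjusted p = 2.45e-05, in CIDEA KO. Of the 2 transporters, *Slc16a3* (MCT4, the exporter of highly glycolytic cells) rose most. It was 152 and 115 TPM in WT ESCs, 310.2 and 284 TPM at 24 h and 351 and 357 TPM at 48 h, and 129.8 and 120.1 TPM in CIDEA KO ESCs, 248 and 220.2 TPM at 24 h and 354 and 388 TPM at 48 h, a log2 fold change by 48 h of 1.32 ± 0.13, adjusted p = 6.23e-06, and 1.59 ± 0.13, adjusted p = 9.58e-07. Every spheroid library was above every ESC library. *Slc16a1* (MCT1) rose little, from 36.3 and 38.5 TPM to 45.96 and 43.6 TPM in WT (0.24 ± 0.08, adjusted p = 0.0406) and from 40.02 and 41.4 TPM to 50.7 and 48.7 TPM in CIDEA KO (0.34 ± 0.08, adjusted p = 0.00436), and the WT call was lost without CIDEA KO ESC replicate 1, CIDEA KO ESC replicate 2, WT 48 h replicate 1, WT 48 h replicate 2, WT ESC replicate 1 or WT ESC replicate 2 (adjusted p up to 0.204) and the CIDEA KO call without CIDEA KO 48 h replicate 1 or CIDEA KO ESC replicate 1 (adjusted p up to 0.053). The WT rise of *Ldha* from 24 h was lost without WT 24 h replicate 1, WT 24 h replicate 2, WT 48 h replicate 1 or WT 48 h replicate 2 (adjusted p up to 0.242).

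At the entry to mitochondria, *Pdha1*, the X-linked E1 subunit of pyruvate dehydrogenase, fell early and stayed low, at 179 and 186 TPM in WT ESCs, 117 and 125 TPM at 24 h and 105 and 113 TPM at 48 h, and 142 and 146 TPM in CIDEA KO ESCs, 98.1 and 112 TPM at 24 h and 94.4 and 92.1 TPM at 48 h. Its log2 fold change by 48 h was -0.71 ± 0.08, adjusted p = 1.43e-06, in WT and -0.58 ± 0.08, adjusted p = 1.48e-05, in CIDEA KO. *Pdk1*, the kinase that shuts this enzyme and a classical HIF1 target, dipped to 24 h, from 177 and 145 TPM to 112 and 123 TPM in WT (-0.37 ± 0.08, adjusted p = 0.00432) and from 151 and 135 TPM to 119 and 112 TPM in CIDEA KO (-0.54 ± 0.08, adjusted p = 1.24e-04). The CIDEA KO dip lost its call with length offsets and with limma (adjusted p up to 0.239), and the WT dip with limma (0.101). At 48 h *Pdk1* was called lower than in ESCs in WT (-0.26 ± 0.08, adjusted p = 0.0291) and CIDEA KO (-0.27 ± 0.08, adjusted p = 0.0246), though at 159 and 154 TPM and 148 and 109 TPM the groups overlapped with ESCs on the TPM scale. These 48 h calls were lost without WT 48 h replicate 1, WT ESC replicate 1 or WT ESC replicate 2 (adjusted p up to 0.237) and without CIDEA KO 48 h replicate 2 or CIDEA KO ESC replicate 1 (adjusted p up to 0.379). *Pdk3* rose in CIDEA KO by 48 h from 17.7 and 17.8 TPM to 27.4 and 26.2 TPM (0.64 ± 0.14, adjusted p = 0.00208) and was 21.02 and 16.9 TPM in WT ESCs, 23.3 and 20.7 TPM at 24 h and 23.9 and 21.4 TPM at 48 h, without a call. *Pdk2* was called lower at 24 h in CIDEA KO (-0.89 ± 0.30, adjusted p = 0.041), where its groups overlapped on the TPM scale (10.2 and 5.98 against 6.04 and 5.66 TPM) and the call was lost in 9 of the 12 fits without 1 library, the one without CIDEA KO 24 h replicate 1 among them (adjusted p = 0.265).

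Of the hypoxia genes, *Vegfa*, the vascular growth factor, fell furthest. It was 26.8 and 28.6 TPM in WT ESCs, 5.46 and 4.45 TPM at 24 h and 7.21 and 3.39 TPM at 48 h, and 34.5 and 39.4 TPM in CIDEA KO ESCs, 1.05 and 3.30 TPM at 24 h and 4.14 and 3.56 TPM at 48 h. All spheroid libraries were below all ESC libraries, and the log2 fold change to 24 h was -2.54 ± 0.51, adjusted p = 0.0111, in WT and -4.65 ± 0.57, adjusted p = 6.72e-04, in CIDEA KO. The CIDEA KO value rested in part on replicate 1, which had 22 estimated *Vegfa* counts against 106 in replicate 2, and without it was -3.92 ± 0.30. With only the compared groups in the edgeR fit, the CIDEA KO call was lost (adjusted p = 0.0755). The WT call was lost without WT 24 h replicate 2 (adjusted p = 0.0746). The oxygen sensors *Egln1* and *Egln3*, prolyl hydroxylases that mark HIF1A, fell too. *Egln1* was 11.7 and 9.67 TPM in WT ESCs, 6.41 and 5.69 TPM at 24 h and 7.60 and 9.05 TPM at 48 h, and 14.2 and 14.8 TPM in CIDEA KO ESCs, 3.42 and 6.76 TPM at 24 h and 8.18 and 6.47 TPM at 48 h, called at 24 h in WT (-0.88 ± 0.23, adjusted p = 0.0155) and CIDEA KO (-1.55 ± 0.24, adjusted p = 1.21e-04). *Egln3* was 9.66 and 6.92 TPM in WT ESCs, 4.72 and 3.24 TPM at 24 h and 7.39 and 6.87 TPM at 48 h, and 6.57 and 9.20 TPM in CIDEA KO ESCs, 1.11 and 1.44 TPM at 24 h and 6.72 and 3.74 TPM at 48 h. In CIDEA KO its dip was -2.67 ± 0.33, adjusted p = 6.22e-06, and its return 2.13 ± 0.32, adjusted p = 1.57e-04. In WT the dip was -1.12 ± 0.30, adjusted p = 0.0155, and the return of 0.88 ± 0.30 was not called (adjusted p = 0.0864). *Bnip3*, a mitophagy receptor induced by HIF1, rose late. In WT it was 79.1 and 68.6 TPM in ESCs, 68.6 and 79.6 TPM at 24 h and 122 and 111 TPM at 48 h. The WT rise was called against ESCs (0.51 ± 0.16, adjusted p = 0.0394) but not against 24 h. In CIDEA KO it was 68.0 and 62.2 TPM, 48.3 and 51.04 TPM and 116 and 97.7 TPM at these times, called against 24 h (1.05 ± 0.17, adjusted p = 0.001). It was also called there against ESCs, a call lost without CIDEA KO 48 h replicate 1 or CIDEA KO ESC replicate 1. The genes of this response thus did not share 1 direction.

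Messenger RNA of the regulator itself was not called at any time. *Hif1a* was 54.5 and 64.9 TPM in WT ESCs, 60.4 and 69.1 TPM at 24 h and 69.1 and 66.7 TPM at 48 h, and 66.9 and 71.8 TPM in CIDEA KO ESCs, 65.2 and 76.1 TPM at 24 h and 72.3 and 70.1 TPM at 48 h, with log2 fold changes between 0.05 and 0.15 over the 6 time comparisons. In all, 8 genes were called in no comparison, *Gpi1* (phosphoglucose isomerase), *Pgam1* (phosphoglycerate mutase), the neuronal and muscle enolases *Eno2* and *Eno3*, *Pdk4*, *Pfkfb4*, *Hif1a* and *Ankrd37*. *Gpi1* and *Pgam1* were abundant, at 347 to 491 TPM and 834 to 941 TPM. On the TPM scale *Gpi1* was nonetheless lower at 24 h than in ESCs, without overlap. It was 491 and 484 TPM against 374 and 347 TPM in WT, and 402 and 399.6 TPM against 354 and 372 TPM in CIDEA KO. *Eno3* lay at 13.3 to 29.3 TPM and *Ankrd37*, an ankyrin repeat gene induced in low oxygen, at 3.602 to 17.0 TPM. A missed call leaves room for change in the scarce genes, and *Eno2* had a log2 fold change of -1.20 ± 0.46 at 24 h in CIDEA KO with adjusted p = 0.08.

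Of the calls over time, 62 of 93 were kept in all fits that left out 1 of the 12 libraries. In WT at 24 h, *Pdk1* lost its call without WT ESC replicate 2 and *Egln3* without WT 24 h replicate 2 or WT ESC replicate 1. *Egln1* lost its own without WT 24 h replicate 1, WT 24 h replicate 2 or WT ESC replicate 1. The WT 24 h calls of *Egln1*, *Egln3* and *Tpi1* were also lost with length offsets and with limma. So was the WT rise of *Ldha* from 24 h to 48 h. Losses under such alternatives are not given for every gene. *Pgk1* at 48 h against ESCs lost its WT call without WT ESC replicate 1 (adjusted p up to 0.0598) and its CIDEA KO call without CIDEA KO 48 h replicate 2, CIDEA KO ESC replicate 1 or CIDEA KO ESC replicate 2 (adjusted p up to 0.165). *Bnip3* at 48 h lost its WT call without WT 24 h replicate 1, WT 24 h replicate 2, WT 48 h replicate 1 or WT ESC replicate 2 (adjusted p up to 0.258).

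The second question was what changed without CIDEA. As ESCs, 4 of the 35 genes differed from WT, 2 higher and 2 lower, where 1.26% of all genes tested were called. At 24 h 6 differed, all lower (background 1.46%), at 48 h 1, lower (background 0.671%), and over all times 10, 2 higher and 8 lower (background 5.03%). The median of the 35 log2 fold changes was -0.12, -0.18, 0.01 and -0.09, beside 0.00, -0.02, 0.00 and 0.00 over all genes. The comparison over all times uses the same libraries as the other 3.

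*Ldhb* was lower in CIDEA KO at every time, with the groups apart. Its log2 fold change was -0.67 ± 0.08, adjusted p = 1.18e-04, in ESCs, -0.52 ± 0.08, adjusted p = 0.00128, at 24 h and -0.58 ± 0.08, adjusted p = 9.22e-04, at 48 h, where WT stood at 270.2 and 259 TPM and CIDEA KO at 172 and 178 TPM. These calls were kept in every fit without 1 library. *Pdha1* was lower in CIDEA KO ESCs, 142 and 146 TPM against 179 and 186 TPM (-0.35 ± 0.08, adjusted p = 0.0291). In the other direction, both glucose transporters were higher in CIDEA KO ESCs. *Slc2a3* was 503 and 551 TPM against 387 and 404 TPM (0.39 ± 0.07, adjusted p = 0.00584) and *Slc2a1* 274 and 278 TPM against 221 and 196 TPM (0.36 ± 0.08, adjusted p = 0.0204). By 48 h the genotypes overlapped for *Slc2a1* and lay within 0.05 of each other on the log2 scale for both, at 0.03 ± 0.08 and -0.00 ± 0.07. The ESC calls were lost without CIDEA KO ESC replicate 1, CIDEA KO ESC replicate 2, WT ESC replicate 1 or WT ESC replicate 2 (adjusted p up to 0.346) for *Pdha1*, without CIDEA KO ESC replicate 1, CIDEA KO ESC replicate 2 or WT ESC replicate 2 (adjusted p up to 0.299) for *Slc2a1* and without CIDEA KO ESC replicate 2, WT ESC replicate 1 or WT ESC replicate 2 (adjusted p up to 0.189) for *Slc2a3*.

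At 24 h the lower genes were 4 enzymes, *Ldhb* and *Egln3*. *Tpi1* was 191 and 208 TPM in CIDEA KO against 281 and 281 TPM in WT (-0.50 ± 0.09, adjusted p = 0.00366), *Pgk1* 335 and 358 against 464 and 459 TPM (-0.44 ± 0.07, adjusted p = 0.00232) and *Aldoa* 941 and 962 against 1280.0 and 1218 TPM (-0.39 ± 0.07, adjusted p = 0.0028). *Egln3* was 1.11 and 1.44 against 4.72 and 3.24 TPM (-1.67 ± 0.32, adjusted p = 0.00945). The groups did not overlap for any of these. *Eno1* was 989 and 1124 against 1156 and 1279 TPM, -0.24 ± 0.06, adjusted p = 0.0373, the weakest of the 6. Without CIDEA KO 24 h replicate 1, *Tpi1* (-0.47, adjusted p = 0.0231), *Pgk1* (-0.42, 0.0114), *Aldoa* (-0.42, 0.00647) and *Ldhb* (-0.50, 0.00799) kept their calls and *Pfkl* gained one (-0.38, 0.0361), while *Eno1* and *Egln3* lost theirs (adjusted p = 0.121 and 0.0533). Without WT 24 h replicate 1, 1 of the 35 was called, *Ldhb*, *Tpi1* also lost its call without WT 24 h replicate 2 (adjusted p up to 0.0734), and with limma on log2(TPM + 1) none was. An unadjusted p under 0.05 was reached by 12 of the 35 genes in limma and by 15 in edgeR.

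**Figure D3:**
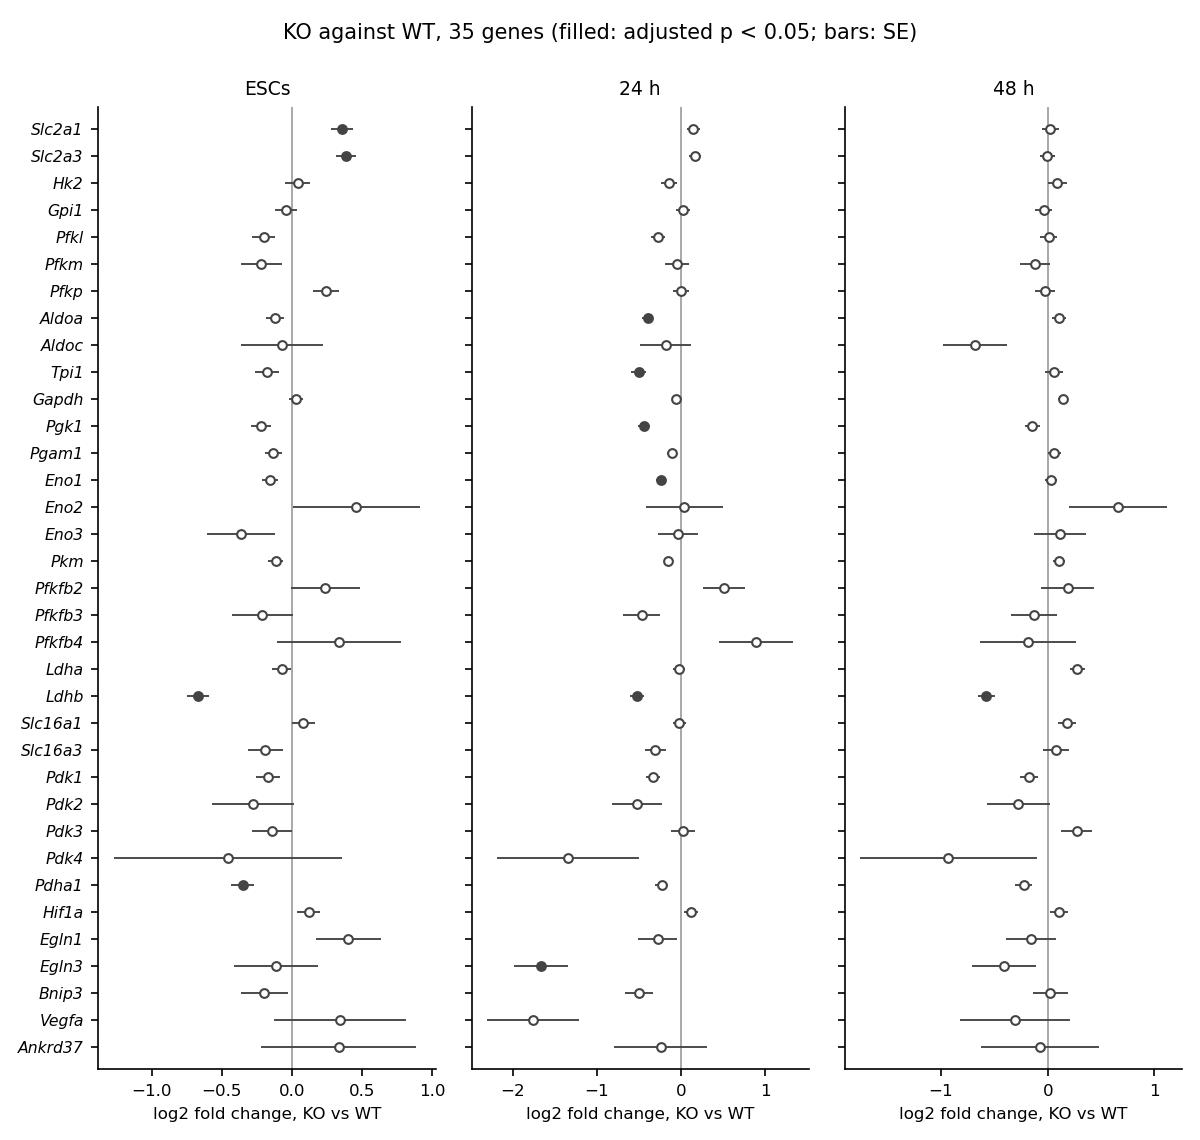
Log2 fold change of CIDEA KO against WT (horizontal axis, a scale of its own in each panel) for the 35 genes in ESCs and at 24 h and 48 h. Bars are 1 SE from edgeR over 2 libraries a group, and filled points passed an adjusted p of 0.05. *Ldhb* is filled in all 3 panels, the glucose transporters in ESCs, and *Tpi1*, *Pgk1*, *Aldoa*, *Eno1* and *Egln3* at 24 h.

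Whether the genotypes differed in their change over time was tested as an interaction. No gene of the 35 was called for 24 h against ESCs (background 0.0115%) or for 48 h against ESCs (background 0.0402%) in edgeR, while 6 and 7 had an unadjusted p under 0.05. DESeq2 called 0 and 2. The deeper 24 h dip of *Egln3*, *Tpi1* and *Aldoa* in CIDEA KO had interaction terms of -1.55 ± 0.44, adjusted p = 0.701, -0.32 ± 0.12, adjusted p = 0.84, and -0.27 ± 0.09, adjusted p = 0.84. The larger fall of *Slc2a3* by 48 h had -0.39 ± 0.10, adjusted p = 0.285, and the larger rise of *Ldha* 0.35 ± 0.10, adjusted p = 0.397. These differences in time course therefore did not pass the correction. Without CIDEA KO 24 h replicate 2, which leaves the library that stood apart, 5 genes were called for 24 h against ESCs (*Slc2a3*, *Pdk4*, *Vegfa*, *Egln1* and *Egln3*), and without replicate 1 none was.

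Over all times, the calls that were kept in every fit without 1 library were *Ldhb* (-0.59 ± 0.05, adjusted p = 1.22e-07), *Pgk1* (-0.27 ± 0.04, adjusted p = 3.36e-04), *Pdha1* (-0.27 ± 0.05, adjusted p = 0.0012) and *Pdk1* (-0.23 ± 0.05, adjusted p = 0.00766). The other 6 were lost in 2 to 9 of those 12 fits. They were *Slc2a1* (0.18 ± 0.04, adjusted p = 0.0233), *Slc2a3* (0.18 ± 0.04, adjusted p = 0.0107), *Aldoa* (-0.14 ± 0.04, adjusted p = 0.0374), *Tpi1* (-0.21 ± 0.05, adjusted p = 0.0169), *Eno1* (-0.12 ± 0.03, adjusted p = 0.0346) and *Egln3* (-0.73 ± 0.18, adjusted p = 0.0178). Both glucose transporters were called higher and the other 8 genes lower in CIDEA KO. With length offsets and with limma, only *Ldhb*, *Pgk1* and *Pdha1* of these genes kept their calls. *Pdk1* lost its call under both (adjusted p up to 0.418).

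Since 1 clone was used, the neighbours of each gene on its chromosome were examined (tested genes starting within 2 Mb whose mean log2 CPM was 1 or more). Around the 10 genes called over all times the median log2 fold change of the neighbours lay between -0.02 and 0.08. *Ldhb* (chr6:142490249-142507957, GRCm38) was at -0.59 ± 0.05 while its 8 neighbours had a median of 0.07 and none was called. *Egln3* (chr12) was at -0.73 ± 0.18 with 18 neighbours at 0.02, and the X-linked genes *Pgk1* and *Pdha1* at -0.27 ± 0.04 and -0.27 ± 0.05 with neighbours at 0.08 and -0.02. The wider lists of pathway genes added 4 genes called lower in CIDEA KO over all times. They were 1 of 21 other glycolysis genes tested, 0 of 11 of pyruvate oxidation, 1 of 8 pentose phosphate and 2 of 30 other hypoxia genes. Another 2 of these hypoxia genes were called higher, and 5.03% of all genes tested were called. Of the 4 lower genes, *Pgd* (-0.21 ± 0.05) lies outside the stretch described next. The other 3, *Hk1*, the second hexokinase, *P4ha1*, a collagen prolyl hydroxylase, and *Ddit4*, an inhibitor of mTORC1, lie between 30 and 65 Mb of chromosome 10, where 93 of 131 genes were called lower in CIDEA KO, with a median of -0.66, against -0.01 on the rest of that chromosome. Their own values were -0.80 ± 0.08, -0.55 ± 0.09 and -0.49 ± 0.08, alike in size to their surroundings. This stretch was delimited after its values were seen, and none of the 35 genes lies in it (*Pfkl*, also on chromosome 10, starts at base 77986947).

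**Figure D4:**
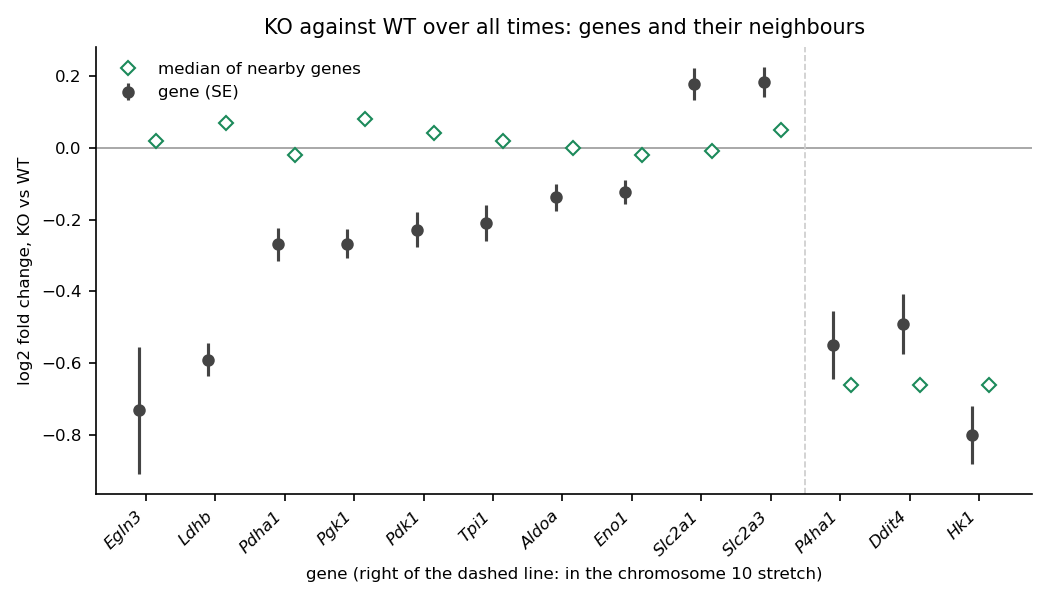
Log2 fold change of CIDEA KO against WT over all times (vertical axis) for the 10 called genes and, right of the dashed line, for *P4ha1*, *Ddit4* and *Hk1*. Filled points are the gene with 1 SE, and diamonds the median of genes within 2 Mb, or of the whole chromosome 10 stretch for the last 3. The diamonds lie near 0 for the 10 and at -0.66 for the last 3, next to the genes' own values.

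The rest of the pathways gives the setting. Of 25 other genes of glycolysis, 21 were tested. In WT 0 rose and 5 fell by 24 h, and 1 rose and 7 fell by 48 h against ESCs, while in CIDEA KO the counts were 0 and 5, then 2 and 7. Of all genes tested, 15.0% and 23.6% were called in these WT comparisons and 18.6% and 25.0% in those of CIDEA KO. *Tigar*, a fructose 2,6-bisphosphatase, fell by 48 h in WT (-1.01 ± 0.12, adjusted p = 2.89e-06) and CIDEA KO (-1.22 ± 0.12, adjusted p = 2.04e-07). *Ldhd*, which oxidises D-lactate, changed by -2.45 ± 0.47 and -1.78 ± 0.46. *Bsg*, the chaperone of the lactate transporters, rose with *Slc16a3* (0.34 ± 0.07 and 0.24 ± 0.07). *Hk1* fell by 48 h in WT (-1.01 ± 0.14) and CIDEA KO (-0.97 ± 0.14), as *Hk2* did, and was lower in CIDEA KO than in WT at all 3 times. *Pgm1* (phosphoglucomutase) dipped at 24 h in WT (-0.97 ± 0.19) and CIDEA KO (-1.48 ± 0.19).

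Of 11 genes of pyruvate oxidation beyond the gate, 0 rose and 3 fell by 48 h in WT and 0 and 2 in CIDEA KO, shares near the 23.6% and 25.0% called of all genes. *Pdhx* and *Pdhb*, subunits of the same complex as *Pdha1*, were at -0.65 ± 0.11 and -0.46 ± 0.09 in WT and -0.41 ± 0.11 and -0.29 ± 0.09 in CIDEA KO, all called. Of 8 pentose phosphate genes, 2 rose in WT and 3 in CIDEA KO by 48 h and none fell, beside the same background. *Pgd* (6-phosphogluconate dehydrogenase) rose by 0.45 ± 0.08 in WT and 0.93 ± 0.08 in CIDEA KO, where ESCs started lower (-0.51 ± 0.08 against WT, adjusted p = 0.00158).

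Of 30 other hypoxia genes, 1 rose and 8 fell by 24 h in WT and 3 and 10 in CIDEA KO (background 15.0% and 18.6%). From 24 h to 48 h, 6 rose and 4 fell in WT and 4 and 4 in CIDEA KO (background 8.14% and 9.95%). *Stc2* (a secreted glycoprotein) and *Bhlhe40* (a transcriptional repressor) were, like *Egln3*, lowest at 24 h. *Bhlhe40* fell by 24 h in WT (-2.95 ± 0.22) and CIDEA KO (-3.03 ± 0.22) and partly returned by 48 h (1.48 ± 0.21 and 1.31 ± 0.22). *Stc2* had -2.09 ± 0.21 and -3.20 ± 0.22, then 1.50 ± 0.21 and 1.80 ± 0.21. *Ak4* (a mitochondrial adenylate kinase) and *Kdm3a* (a histone demethylase) instead fell from 24 h to 48 h, at -0.65 ± 0.10 and -0.48 ± 0.08 in WT. *Epas1*, which encodes HIF2A, was lower at 48 h than at 24 h in WT (-0.95 ± 0.11). Between genotypes, *Plod2* (lysyl hydroxylase) was higher in CIDEA KO at 24 h and 48 h (0.43 ± 0.10 and 0.53 ± 0.10, adjusted p = 0.0435 and 0.0179). All these values are edgeR log2 fold changes ± SE.

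*Pkm* makes 2 enzymes from mutually exclusive exons of equal length. Exon 9 gives M1, the form of adult muscle and brain, and exon 10 gives M2, the form of embryonic and dividing cells. Both exons (GRCm38, chromosome 9, plus strand, 167 bases) are shown in lower case with the bases that differ at the same position in capitals, 103 of the 167 being identical (61.7%).
M1 exon (chr9:59675029-59675195): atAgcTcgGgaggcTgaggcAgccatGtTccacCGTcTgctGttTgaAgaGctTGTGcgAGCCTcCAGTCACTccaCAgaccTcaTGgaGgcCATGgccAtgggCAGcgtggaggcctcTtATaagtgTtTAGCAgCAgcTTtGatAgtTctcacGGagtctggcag
M2 exon (chr9:59675568-59675734): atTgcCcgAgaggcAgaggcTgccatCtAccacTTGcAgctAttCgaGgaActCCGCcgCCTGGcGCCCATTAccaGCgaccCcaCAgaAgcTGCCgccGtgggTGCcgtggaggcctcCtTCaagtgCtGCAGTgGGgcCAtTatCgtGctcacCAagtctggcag
The M2 transcript held 91.9% ± 2.1 of the estimated *Pkm* counts (mean ± SD over the 12 libraries). Of the counts of the main M1 and M2 transcripts together, M1 took 2.37% to 8.01%. By group this was 4.64% ± 3.03, 4.30% ± 1.35 and 6.26% ± 2.49 in WT ESCs, 24 h and 48 h, and 2.72% ± 0.49, 4.53% ± 1.80 and 6.54% ± 1.87 in CIDEA KO (SD, n = 2). In WT the 3 times overlapped. In CIDEA KO both ESC libraries, at 2.37% and 3.06%, were below both libraries at 24 h (3.26% and 5.80%) and at 48 h (7.87% and 5.22%). No test was made on these shares with 2 libraries a group. The main transcript of *Aldoa* held 91.6% ± 1.1 of its counts in the same way. For *Vegfa* the split into transcripts was unstable, with the most abundant one at 58.0% ± 26.3 over the 12 libraries, and only its gene total is used here.

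Glycolytic genes have many near-identical copies, and reads that fit several were divided by the authors' quantification. Of the 31-base words in the main transcript of *Gapdh*, 84.1% also occur in other genes, and the values for *Eno1*, *Pgk1*, *Pkm*, *Pgam1*, *Ldhb* and *Pfkfb2* were 73.0%, 68.3%, 48.3%, 42.1%, 41.4% and 43.0%. The copies took few counts except for *Eno1*, *Pgk1* and, to a lesser extent, *Gapdh*. Copies of *Pgk1* held 22.2% of its own counts, those of *Eno1*, chiefly *Eno1b*, 90.5% and those of *Gapdh* 8.74%. Adding them moved the rise of *Gapdh* from 24 h to 48 h in CIDEA KO from 0.30 to 0.22 (adjusted p = 0.00434, edgeR). With the counts of copies added to the gene, *Pgk1* kept its calls (24 h against ESCs -0.75 ± 0.06 in WT and -0.92 ± 0.06 in CIDEA KO, and -0.41 ± 0.06 between genotypes at 24 h). *Eno1* lost 3 calls, those between genotypes at 24 h (-0.20, adjusted p = 0.0967) and over all times (-0.11, 0.0548) and that from 24 h to 48 h in WT (0.13, 0.179), and gained 1, a rise from ESCs to 24 h in WT (0.18, adjusted p = 0.0383, against 0.14 ± 0.06, adjusted p = 0.113, without the copies). Its level and its difference between genotypes are therefore uncertain, while its rise by 48 h was called either way (0.31 and 0.55 with the copies). This choice was added after the data were seen.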

How the data were processed

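RNA was measured by polyA-selected RNA-seq in 12 libraries, 2 for each of 6 groups. Per the labels and methods, the authors trimmed with Trimmomatic, ran kallisto and deposited estimated counts and TPM for each transcript. Here 113580 of 115270 transcripts (98.5%) were assigned to GENCODE M21 genes (GRCm38), summed per gene, and the estimated counts rounded. Of 35580 genes, 17424 passed filterByExpr and were tested with edgeR's quasi-likelihood test (TMM, 1 fit over all 12 libraries, log2 fold change ± SE). A gene was called at a Benjamini-Hochberg adjusted p under 0.05 over all genes tested. The fit was also run on simulated counts, drawn without a library that stood apart, and the outcome is not given here. All 35 genes were named. From each other list, at most 3 called genes a direction with the largest change and a mean log2 CPM of at least 1 could be named, and marker lists were given as counts and sums. The genes and lists were chosen with earlier results of these data known. Alternatives were DESeq2, its size factors, transcript-length offsets, no filter, limma on log2(TPM + 1), fits of the compared groups alone, a replicate block and each library left out.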

Additional observations from a re-analysis of the deposited data

How the results depend on the processing

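Of the 114 calls of single genes over 10 comparisons, 69 were kept in every fit without 1 library, 66 under every other alternative and 58 in all, and none reversed. The replicate numbers did not pair the samples (correlations of same-numbered libraries -0.049 to 0.051), and with the replicate as a block 112 of the 114 calls were kept and WT 48 h against 24 h gave 9 genes. DESeq2 kept 113 calls, transcript-length offsets 78 and limma on log2(TPM + 1) 67, and the causes were not tested. For WT at 48 h against 24 h, 8 genes became 5 with length offsets, 5 with limma and 13 with only the compared groups in the fit. For CIDEA KO against WT, the 4 genes in ESCs became 1 with length offsets and 1 with limma, the 6 at 24 h became 0 with limma, the 1 at 48 h became 2 with DESeq2, 2 with no filter and 2 with only the compared groups, and the 10 over all times became 3 with length offsets and 3 with limma. The interaction gave 1 gene at 24 h with no filter and 2 at 48 h with DESeq2, against 0. Without 1 library the counts ranged from 3 to 13 for WT 48 h against 24 h, 1 to 4 for the genotypes in ESCs, 1 to 11 at 24 h, 1 to 2 at 48 h, 5 to 13 over all times and 0 to 5 for the 24 h interaction. On the TPM scale the main transcript shares were 86.4% for *Pkm*, 86.4% for *Aldoa* and 30.7% for *Vegfa*. With 2 libraries a group, scarce genes such as *Pdk4* and *Eno2* leave large changes undetectable.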
